A study of Mus musculus with 21 samples.

Results

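The 7 left ventricles examined here came from mutant mice fed the control diet, 7 of the 21 hearts sequenced. They were chosen by their label alone and then placed in order by a natriuretic score, the mean of the log2 CPM of Nppa and Nppb in the same libraries. CPM are counts scaled to the library's total (per 1e+06) after scaling of the libraries by the trimmed mean of M-values (TMM). Ranks run from 1, the lowest score, to 7, the highest. All animals were male 129S6/SvEv mice, and the mutants carried 1 R403Q allele of Myh6 (Myh6+/R404Q in the strain's own numbering), which encodes the α-myosin heavy chain. The 7 mutants on the control diet form the group R403Q-CD, and 5 wild-type littermates on it form WT-CD. Empagliflozin, an SGLT2 inhibitor, was mixed into the diet at 0.15 mg/g for 4 mutants (R403Q-EMPA) and 5 wild-type mice (WT-EMPA). The diets began at 9 to 10 weeks of age, and by the study's methods the hearts for sequencing were taken 2 weeks later, at 12 weeks, before ventricular hypertrophy sets in, whereas the sample descriptions name only the full course of 16 weeks. RNA came from pieces of whole tissue, and in such tissue fewer cells of a type and less RNA per cell cannot be told apart.

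Nppa and Nppb encode the precursors of atrial and B-type natriuretic peptide, hormones that muscle cells of the heart release under stretch and that lower blood volume and pressure through guanylyl cyclase receptors. In the adult mouse Nppa is made mostly in the atria, and both genes are switched on again in ventricles under load, which is why they serve as a gauge of stress on the ventricular wall. Hypertrophic cardiomyopathy, of which the R403Q mouse is a model, joins thick and disordered muscle to scarring between the muscle cells.

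The genes lie next to each other on chromosome 4 of GRCm38, Nppb (ENSMUSG00000029019) from 147985788 to 147987205 and Nppa (ENSMUSG00000041616) from 148000722 to 148002079, both on the plus strand. The 250 bases before their RefSeq starts are shown because these genes set the order of the hearts, beside those of Acta1, the skeletal α-actin gene of the fetal heart, which rose with them. Capitals mark matches to a TATA box (TATAAA, gene strand only), the GATA core (GATAA), the M-CAT core (CATTCC), the CCAAT box (CCAAT) or the CArG box, the last 4 on either strand.
Nppa promoter, chr4:148000472-148000721, plus strand, GRCm38.p6: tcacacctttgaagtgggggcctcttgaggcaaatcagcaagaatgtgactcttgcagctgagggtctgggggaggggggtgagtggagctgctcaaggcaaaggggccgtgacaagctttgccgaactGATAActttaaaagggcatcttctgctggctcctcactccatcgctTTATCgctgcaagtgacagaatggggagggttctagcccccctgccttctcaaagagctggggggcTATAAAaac
Nppb promoter, chr4:147985650-147985899, plus strand, GRCm38.p6: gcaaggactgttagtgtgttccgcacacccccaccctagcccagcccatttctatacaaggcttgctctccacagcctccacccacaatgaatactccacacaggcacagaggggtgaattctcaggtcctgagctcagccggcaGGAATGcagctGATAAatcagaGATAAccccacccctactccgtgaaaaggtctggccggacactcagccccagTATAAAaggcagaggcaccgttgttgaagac
Acta1 promoter, chr8:123894776-123895025, minus strand, GRCm38.p6: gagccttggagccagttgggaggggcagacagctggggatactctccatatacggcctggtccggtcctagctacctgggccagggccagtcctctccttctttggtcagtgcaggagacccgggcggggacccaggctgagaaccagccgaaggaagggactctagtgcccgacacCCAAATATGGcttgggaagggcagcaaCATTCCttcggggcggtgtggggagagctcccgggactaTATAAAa
A TATA match stood in all 3 windows, in 7.59% of the 32851 promoter windows of the same length and in 3.97% of the 10162 that belonged to genes tested. GATA matches stood at −121 and −75 before the start of Nppa and at −94 and −83 before that of Nppb, and such a match was found in 22.6% of all windows and 14.3% of those of genes tested. The M-CAT core, found in 12.6% and 10.6%, stood at −105 of Nppb and at −46 of Acta1, and Acta1 alone held a CArG box, found in 1.47% and 1.18%. None of the windows held a CCAAT box, which 33.8% and 36.2% did. Genes were also set apart by order alone, with no test, by their Spearman rho with the score (described further on). Of those with a high positive rho 5.58% had a TATA match and 13.5% a GATA match. Of those with a strongly negative rho the shares were 2.73% and 13.7%. GENCODE places the start of Nppb inside the window shown. These are matches of letters and not binding sites.

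Each R403Q-CD library held between 27348777 and 43539684 counts, against 23491535 to 40600094 in the other groups. Before the TMM scaling, 3 counts in an R403Q-CD library amount to 0.0689 to 0.11 CPM, a limit that covers counting error only. Pairs of R403Q-CD libraries had a Spearman correlation of 0.948 to 0.958 and no library was a copy of another. The counts cannot tell the mutant allele from the normal allele of Myh6. The rank 7 heart, R403Q-CD replicate 2, had the most counts, and over the 7 hearts the score had a Spearman rho of 0.607 with the total count, 0.679 with the TMM factor and −0.714 with the share of counts taken by the 10 highest genes. The part of these library measures in the results was not tested. The sample labels name a cage for each mouse: the hearts of ranks 3, 4 and 6 came from 1 cage, those of ranks 2 and 5 from another, and ranks 1 and 7 from a cage each. Each of these cages also held WT-CD mice, and no cage held mice of both diets. The labels give no batch other than the cage, and as each mouse gave 1 library the p-values measure the spread between mice.

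The gradient was not even. Nppa was 885, 930, 878, 1141 and 1424 CPM in the hearts of ranks 1 to 5, 3821 CPM at rank 6 and 11132 CPM at rank 7. Nppb was 144, 139, 171, 181 and 217 CPM in the former 5 hearts, 316 at rank 6 and 653 at rank 7. The score was 8.48, 8.49, 8.60, 8.83, 9.12, 10.10 and 11.40, so that the highest 2 hearts stood 0.98 and 1.29 log2 units above the heart before them, whereas ranks 1 and 2 were 0.008 apart and can hardly be put in order. A doubling of both genes adds 1 to the score. The 5 lower hearts lay above every WT-CD heart, whose scores ran from 7.24 to 8.33, and overlapped with those of WT-EMPA hearts (7.47 to 8.65) and R403Q-EMPA hearts (7.62 to 8.66). Nppa grew faster than Nppb along the order, from a ratio of 5.13 to 6.71 over ranks 1 to 5 to 12.1 at rank 6 and 17.0 at rank 7. Within the cage of 3 hearts the scores were 8.60, 8.83 and 10.10 and within the cage of 2 they were 8.49 and 9.12.

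**Figure D1:**
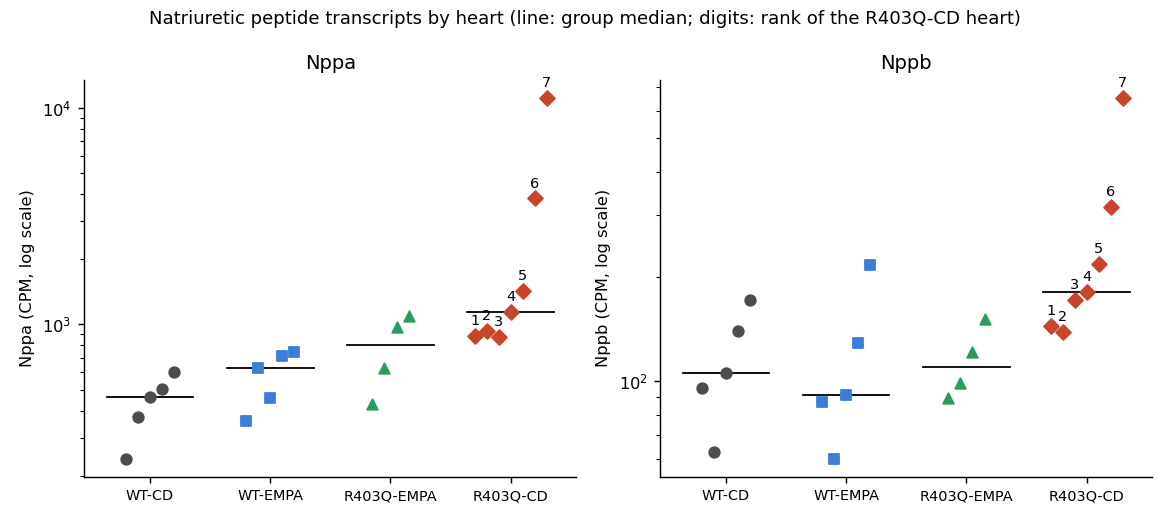
Nppa and Nppb in CPM (log axes) in each of the 21 hearts by group, with a line at the group median and the rank of each R403Q-CD heart as a digit. Ranks 6 (3821 CPM of Nppa) and 7 (11132 CPM) stand apart from the other 5 R403Q-CD hearts, which reach 1424 CPM.

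To find which genes moved along this order, edgeR's quasi-likelihood test was applied to the slope of each of 14212 genes on the score, with Nppa and Nppb left out. A slope is the log2 change in CPM per unit of score, and a gene is said to rise or fall where its adjusted p is under 0.05. The score was measured in the libraries it is set against, so the test tells of genes that varied together in these 7 hearts. Of the genes tested, 3026 passed (21.3%), 1722 rising (12.1%) and 1304 falling (9.18%), with a median absolute slope of 0.28. With the rank of the heart in place of the score no gene passed in edgeR's test and 3334 had an unadjusted p under 0.05. Of the 3026 genes, 55 had a mean under 1 CPM over ranks 1 to 6 and were tested only because they were high at rank 7. By order alone, with no test, 1102 genes (7.75%) had a Spearman rho of 0.75 or more and 894 (6.29%) of −0.75 or less. At the edge, 285 genes had a rho of exactly 0.75 and 284 the next value below, 0.71. In 2957 of the 3026 genes that passed (97.7%), rank 7 was the highest or the lowest heart. Without that heart 107 genes passed, 103 rising (0.725%) and 4 falling (0.0281%), of which 97 were among the 3026. Of the 3026 slopes, 2976 kept their sign. Without ranks 6 and 7 no gene passed in edgeR's test and 813 had an unadjusted p under 0.05.

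The rising genes with the smallest p included several of the extracellular matrix. Tnc, the gene of tenascin C, a matrix glycoprotein of wounds and of the fetal heart, had the steepest slope of these genes. It was 0.635 to 1.81 CPM over ranks 1 to 5, 4.52 at rank 6 and 49.1 at rank 7, with a slope of 1.94 (SE 0.114, adjusted p = 1.99e-05, edgeR) and of 1.35 without rank 7 (adjusted p = 0.0414). Mfap5, which encodes a glycoprotein of the microfibrils, went from 22.7 to 35.6 CPM in the 5 lower hearts to 89.8 at rank 6 and 291 at rank 7 (slope 1.20).
For Tnc and Mfap5 both upper hearts stood clear of the other 5, and the 5 lower hearts overlapped with WT-CD. The growth factor gene Tgfb2 was 12.0 to 15.1 CPM in the lower hearts, 28.4 at rank 6 and 67.2 at rank 7, a slope of 0.83 (SE 0.0481). The protease inhibitor gene Serpine2 had a slope of 0.82, the short-chain collagen gene Col8a1 of 1.14, the proteoglycan gene Bgn of 0.72, and Srpx, of a secreted protein with sushi repeats, of 0.78. Ccdc68, which encodes a protein of the centriole, was the one gene of these whose order in the 7 hearts was exactly that of the score, from 2.08 to 16.7 CPM (slope 1.01). These genes and Col1a2, described below with the collagens, all passed without rank 7, with adjusted p between 0.00976 and 0.0414 in edgeR's test, and none passed without ranks 6 and 7. With the cage as a factor, where the 5 hearts of the shared cages alone inform the slope, 30 genes rose (0.211%) and 0 fell, while 1417 had an unadjusted p under 0.05. Mfap5, Col1a2 and Tnc were among the 30.

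The genes that fell with the smallest p had slopes between −0.72 and −0.34. Rbfox1, a splicing factor of muscle and nerve (chromosome 16, 5885355 to 7411526), was 44.2 to 57.6 CPM over ranks 1 to 5, 27.7 at rank 6 and 11.8 at rank 7, below the WT-CD range of 58.4 to 66.4 in all 7 hearts. Its slope was −0.72 (SE 0.060, adjusted p = 8.22e-05, edgeR) and −0.57 without rank 7 (adjusted p = 0.0369). Rbfox1 was the only one of these 10 to pass without rank 7.
The other 9 were Asb15, an adaptor of a ubiquitin ligase in muscle (slope −0.46), the membrane metalloproteinase gene Mmp15 (−0.40), the unconventional myosin gene Myo10 (−0.35), the long noncoding RNA gene Gm36827 (−0.58), the Ral GTPase activator Ralgapa2 (−0.37), the calcium sensor of membrane fusion Syt7 (−0.36), Klhl33 (−0.58), the scaffold gene Whrn (−0.48) and the transcription factor Mitf (−0.34). Rank 7 was their lowest heart and rank 6 the next. Their adjusted p without rank 7 lay between 0.0633 and 0.218. Beside Rbfox1, the genes that fell without rank 7 were Aldh1l2, of mitochondrial folate metabolism, the atrial potassium channel gene Kcnj3 and the semaphorin receptor gene Plxnb1.

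**Figure D2:**
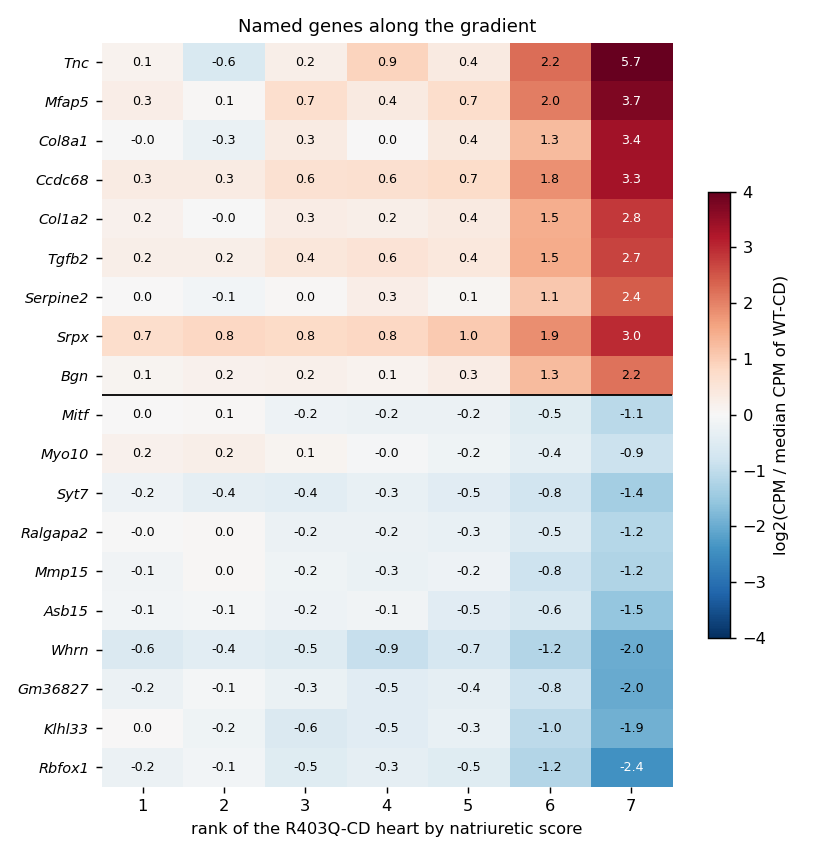
The genes named by rule in R403Q-CD (9 rising, 10 falling), as log2 of CPM over the median CPM of WT-CD hearts (printed in each cell, colour saturated beyond 4), against the rank of the R403Q-CD heart. Tnc is far above WT-CD at ranks 6 and 7 (4.52 and 49.1 CPM), Srpx (6.14 to 29.9 CPM) lies above the WT-CD range in all 7 hearts, and Rbfox1 (11.8 to 57.6 CPM), Syt7 (17.2 to 38.3) and Whrn (8.32 to 24.7) lie below it in all 7.

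Of all genes tested, 34 stood in exactly the order of the score, 22 upwards and 12 downwards, and 28 of them had an adjusted p under 0.05. Besides Ccdc68, the lectin gene Lman1l (slope 0.95, adjusted p = 0.049 without rank 7 in edgeR's test) and the mucin gene Muc15 also passed without rank 7, and the remainder did not. Muc15 was 0.195 to 0.332 CPM in ranks 1 to 5, 3.95 at rank 6 and 10.6 at rank 7, and reached the minimum for testing only through its upper 2 hearts, so its call is no support. These genes were picked for their order, and their likeness to the score is a description.

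Collagen genes rose together. All 18 tested rose over the 7 hearts, where 12.1% of all genes did, with a median slope of 0.91, against 0.0027 over all genes tested, and rank 7 held a median of 6.27 times the mean of the lowest 3 hearts and rank 6 a median of 2.23 times. Col1a2, of the α2 chain of the main fibril collagen (chromosome 6, 4504814 to 4541544), was 131, 115, 141, 135 and 148 CPM over ranks 1 to 5, 318 at rank 6 and 827 at rank 7, and WT-CD hearts had 84.8 to 197 CPM. Its slope was 0.94 (SE 0.0496, adjusted p = 1.96e-05, edgeR) and 0.81 without rank 7 (adjusted p = 0.0136).
The 5 lower mutants lay within the range of WT-CD for Col1a2, and this held for 14 of the 18 collagens (77.8%), against 13.1% of all genes tested. Col3a1, of the finer fibrils of young scars, went from 76.8 to 142 CPM in the lower hearts to 323 and 1568 in the upper 2 (slope 1.29), and Col1a1 from 48.5 to 82.2 CPM to 201 and 689 (slope 1.16). Rank 6 was above every lower mutant in 18 of 18 collagens, where 20.6% of all genes showed this. The basement membrane genes Col4a1 (0.67) and Col4a2 (0.55) rose less steeply.
Without rank 7 the median slope was 0.69 and 5 of the 18 passed, namely Col1a1, Col1a2, Col5a2, Col8a1 and Col16a1. In the cage of 3 hearts Col1a2 was 141, 135 and 318 CPM and in the cage of 2 it was 115 and 148 CPM, highest in both cages in the mouse with the highest score. With the cage as a factor 4 of the 18 collagens passed, namely Col1a1, Col1a2, Col3a1 and Col16a1, and the median slope was 0.68.

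Of 26 other matrix and profibrotic genes 22 rose (84.6%, against 12.1% of all genes tested), none fell and the median slope was 0.76. Periostin (Postn), a protein of activated fibroblasts, was 37.5 to 68.1 CPM in the lower 5 hearts, 208 at rank 6 and 656 at rank 7, and its slope was 1.25 without rank 7 (adjusted p = 0.0369, edgeR). Timp1, an inhibitor of matrix proteases, went from 1.91 to 2.89 CPM to 9.91 and 76.8 (slope 1.74), and Cilp, a matrix protein that fibroblasts make, from 3.81 to 13.1 CPM to 68.4 and 203 (slope 1.81).
The cross-linking enzymes Loxl1, Loxl2 and Loxl3 rose with slopes of 0.76, 1.07 and 0.67, and so did all 3 transforming growth factor genes, from 0.26 for Tgfb1 to 0.83 for Tgfb2. Ccn2, a matricellular protein that responds to transforming growth factor and stretch, did not follow the score: it was 623, 963, 272, 227 and 421 CPM over ranks 1 to 5, 529 at rank 6 and 1146 at rank 7 (slope 0.30, adjusted p = 0.310). Eln, Fmod and Comp had slopes of 0.23, 0.55 and 0.35 and did not pass either. Without rank 7, 10 of the 26 passed, where 0.725% of all genes rose, with a median slope of 0.71, and with the cage as a factor 6 passed (Spp1, Cilp, Timp1, Tnc, Thbs4 and Mmp2) with a median of 0.67.

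Markers of other cells of the heart wall were examined beside the matrix genes. Of 6 fibroblast markers 3 rose (50%, against 12.1% of all genes tested): Pdgfra from 57.5 to 65.5 CPM in the lower 5 hearts to 75.1 and 80.2 (slope 0.14), Dcn with a slope of 0.24 and Lum with 0.65. Tcf21, Gsn and Ddr2 had slopes of 0.06 to 0.11. Without rank 7 only Lum passed of the 6, and the median slope of the list went from 0.12 to 0.28. With the cage as a factor none of the 6 passed. The summed level of the list was 2427 to 3399 CPM in ranks 1 to 5, 3772 at rank 6 and 3776 at rank 7, and 1974 to 3242 CPM in WT-CD.
Of 5 mesothelial markers, of the covering layer of the heart, 4 were highest at rank 6, and Wt1 was highest at rank 4 (8.80 CPM, against 6.14 at rank 6). Their sum was 61.6 CPM in that heart, 8.51 to 29.1 in the other 6 and 6.71 to 23.1 in WT-CD. None of the 5 passed, and their median slope was 0.27 over the 7 hearts, 1.06 without rank 7 and 1.27 with the cage as a factor, above those of the collagens and the matrix list in the latter fits. Of 7 pericyte and smooth muscle markers 3 rose (42.9%, against 12.1%). The smooth muscle gene Tagln was 176 CPM at rank 6 and 94.6 at rank 7, against 33.9 to 57.0 in the lower hearts, and Cnn1 was 27.3 and 18.6 against 2.90 to 8.09, and both rose (slopes 0.68 and 1.02), also without rank 7, and Pdgfrb rose over the 7 hearts only. Myh11 was also highest at rank 6, at 236 CPM, but was 64.2 at rank 7, within the 45.8 to 118 of the lower hearts, and Acta2 was highest at rank 2, at 422 CPM against 414 at rank 6 and 368 at rank 7, and these did not pass (slopes 0.26 and 0.19). The pericyte genes Rgs5 and Kcnj8 had slopes of −0.07 and 0.00. With the cage as a factor none of the 7 passed. The part of these cells in the matrix result, which without rank 7 rests on the rank 6 heart, was not tested.

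**Figure D3:**
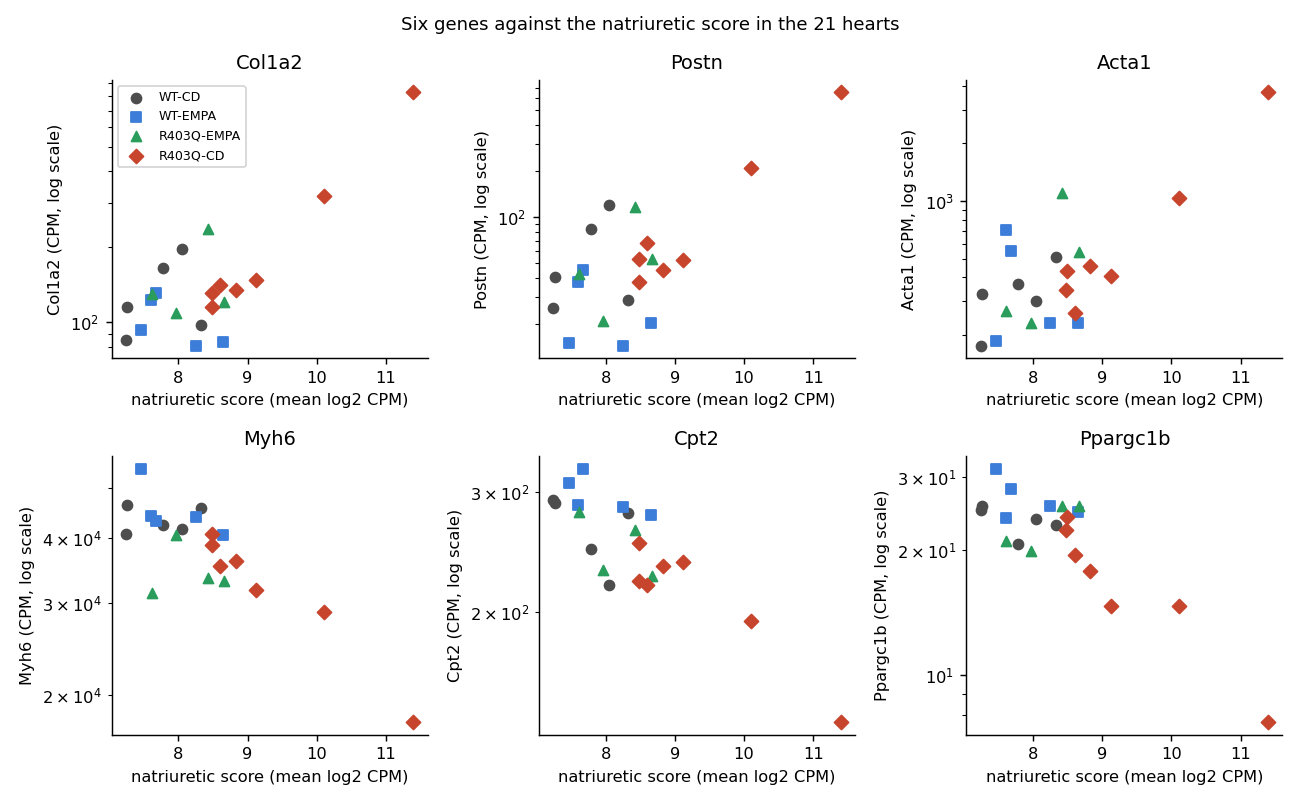
CPM (log axes) of 6 genes against the natriuretic score in the 21 hearts, by group. Col1a2, Postn and Acta1 are high in the 2 R403Q-CD hearts with scores above 10 (827 and 318 CPM of Col1a2), and Myh6, Cpt2 and Ppargc1b are low there.

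The genes that mark load on the muscle cell itself rose in part. Of 15 mechanical stress genes 8 rose (53.3%, against 12.1% of all genes tested) and 0 fell, with a median slope of 0.20. Ankrd1, a stretch sensor of the sarcomere that is also a regulator of transcription, was 1314 to 2485 CPM over ranks 1 to 5, 4155 at rank 6 and 6749.9 at rank 7 (slope 0.66, SE 0.0821, adjusted p = 0.000713, edgeR). Fhl1, a LIM protein of the I band, was 194 to 224 CPM in the lower hearts, 326 at rank 6 and 1713 at rank 7 (slope 1.0). Xirp2 (0.58), the calcineurin inhibitor gene Rcan1 (0.49), Hspb1 (0.36), Flnc (0.28), Des (0.27) and Tgm2 (0.19) made up the 8.
None of the 15 passed without rank 7, where the median slope was 0.045 and those of Fhl1 and Ankrd1 were 0.40 and 0.71 (adjusted p = 0.123 and 0.111). With the cage as a factor none of the 15 passed either, and the median slope was −0.016. Among 11 genes of the fetal heart, Acta1 rose and Myh7b fell (9.09% each way, against 12.1% and 9.18% of all genes). Acta1 was 345, 430, 262, 457 and 408 CPM over ranks 1 to 5, 1041 at rank 6 and 3689.8 at rank 7, a slope of 1.16 (SE 0.0841, adjusted p = 5.70e-05, edgeR) and 0.94 without rank 7 (adjusted p = 0.0392). Myh7, the slow myosin gene of the fetal mouse ventricle, did not go with them: it was 2192 to 2956 CPM in ranks 1 to 6 and 1927 at rank 7 (slope −0.10, adjusted p = 0.339). With the cage as a factor none of the 11 passed, Acta1 included.

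In the natriuretic system beyond its hormones 1 of 8 genes rose and 1 fell (12.5% each, against 12.1% and 9.18% of all genes tested). The guanylyl cyclase receptor genes Npr1 and Npr2 had slopes of 0.04 and 0.02, the clearance receptor gene Npr3 −0.17, and the convertase genes Corin, Furin and Pcsk6 −0.08, 0.04 and −0.35, and these did not pass. Prkg1, the kinase that cyclic GMP activates, rose from 23.5 to 29.8 CPM in the lower 5 hearts to 36.5 and 41.4 (slope 0.22, adjusted p = 0.0156, edgeR). Mme, the gene of neprilysin, which breaks natriuretic peptides down, fell (slope −0.56, adjusted p = 0.0136): it was 19.1 to 28.1 CPM in ranks 1 to 6 and 6.27 at rank 7. Neither passed without rank 7 (adjusted p = 0.502 and 0.851).

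Genes of mitochondrial metabolism were low at ranks 6 and 7. Of 21 fatty acid oxidation genes 19 fell (90.5%, against 9.18% of all genes tested) and 0 rose, with a median slope of −0.28. By order alone, 0 of the 21 had a rho of −0.75 or less, where 6.29% of all genes did. The 21 genes had a median level of 0.789 times the mean of the lowest 3 hearts at rank 6 and 0.567 times at rank 7, and rank 7 was the lowest heart for all 21, where 27.1% of all genes showed this. Hadha, of the trifunctional protein that shortens long acyl chains, was 1738 to 2009 CPM over ranks 1 to 5, 1444 at rank 6 and 915 at rank 7 (slope −0.35, SE 0.0551, adjusted p = 0.00247, edgeR). Acaa2, of the last step of the cycle, went from 738 to 947 CPM to 597 and 330 (slope −0.46), and Hadh from 632 to 716 CPM to 499.8 and 295 (slope −0.40). The carnitine shuttle genes Cpt1b, Slc25a20 and Cpt2 had slopes of −0.22, −0.27 and −0.25. Cd36 and Fabp3, which bring fatty acids to the mitochondrion, had slopes of −0.14 and −0.13 and did not pass.
Rank 6 lay below every WT-CD heart in 19 of the 21 genes (30% of all genes) and rank 7 in 21 (34.7% of all genes). The 5 lower hearts lay within the WT-CD range for 8 (38.1%, against 13.1% of all genes). Without rank 7, 0 of the 21 passed in edgeR's test, the median slope was −0.20 and 21 of 21 slopes stayed negative.

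The PDH complex and TCA cycle had 20 of 24 genes falling (83.3%, against 9.18% of all genes tested), a median slope of −0.24 and rank 7 as the lowest heart for all 24, where 27.1% of all genes showed this. Idh2, the NADP-linked isocitrate dehydrogenase, was 2429.6 to 2653 CPM in the lower 5 hearts, 1930.5 at rank 6 and 1066 at rank 7 (slope −0.41), and Cs, citrate synthase, was 1389 to 1662.5, 1085 and 846 CPM (slope −0.29). In the respiratory chain 20 of 36 complex I genes fell (55.6%, median slope −0.20) and 15 of 34 of complexes III to V (44.1%, median −0.19), with 0 rising. Both lists were highest at rank 5. The complex I sum was 13438 to 14603 CPM at ranks 1 to 4, 16686 at rank 5, 11747 at rank 6 and 9373 at rank 7. For complexes III to V it was 32209 to 34799, 38785, 27916 and 22033 CPM. By order alone, a rho of −0.75 or less was found for 3 of the 24 PDH and TCA genes, 1 of the 36 of complex I and 2 of the 34. The share of all genes was 6.29%. With the cage as a factor no gene of these lists passed, and the median slopes were −0.14 for fatty acid oxidation, −0.14 for the PDH complex and TCA cycle, −0.03 for complex I and −0.05 for complexes III to V.
Branched-chain amino acid breakdown had 16 of 20 genes falling (80%, against 9.18% of all genes tested) and a median slope of −0.29, or −0.18 without rank 7. By order alone, 5 of the 20 had a rho of −0.75 or less, against 6.29% of all genes. Ppm1k, the phosphatase that switches the branched-chain dehydrogenase on, was 190 to 245 CPM over the lower hearts, 148 at rank 6 and 95.4 at rank 7 (slope −0.42), and Mccc1, of leucine breakdown, had a slope of −0.37. In 7 of these 20 genes all 5 lower mutants already lay below every WT-CD heart, where 1.82% of all genes did. The kinase gene Bckdk (−0.11) did not pass.
Of 15 PPARα targets and coactivators 9 fell (60%, against 9.18% of all genes tested), and 4 of the 15 had a rho of −0.75 or less (6.29% of all genes). Ppargc1b, a coactivator of mitochondrial genes, followed the order closely: 22.4, 24.0, 19.4, 17.8, 14.6, 14.7 and 7.69 CPM from rank 1 to rank 7 (slope −0.48, SE 0.0648, adjusted p = 0.00104, edgeR), against 20.7 to 25.6 in WT-CD. Ppara (−0.35) and Ppargc1a (−0.37) fell as well, and Pdk4, which shuts glucose out of the PDH complex, was 633 to 3139.9 CPM with no order (slope −0.27, adjusted p = 0.414). In all 4 of these metabolic lists and in both respiratory lists 0 genes passed without rank 7, with median slopes between −0.23 and −0.11. With the cage as a factor the median slopes were −0.15 for branched-chain amino acid breakdown and −0.07 for the PPARα list.

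Of 13 glycolysis genes 5 fell (38.5%, against 9.18% of all genes tested), the insulin-responsive transporter gene Slc2a4 (slope −0.33) and Hk2 (−0.33) among them, and Eno1 rose (0.13), 7.69% against 12.1% of all genes. Among 5 genes of ketone use Oxct1 (−0.22), Acat1 (−0.25) and Slc16a7 (−0.43) fell (60%), while Bdh1, which converts between the ketone bodies, rose from 27.7 to 73.7 CPM in the lower 5 hearts to 59.6 and 119 (slope 0.45, adjusted p = 0.0166, edgeR). None of these passed without rank 7.

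Sarcomere genes fell in 6 of 20 cases (30%, against 9.18% of all genes tested) and rose in none. Myh6, which carries the mutation, was 38807, 40782, 35368, 36224, 31868, 28864 and 17747 CPM from rank 1 to rank 7, and 40828 to 46418 CPM in WT-CD. All 7 mutants were below all 5 WT-CD hearts. Its rho with the score was −0.93 and its slope −0.36 (SE 0.0647, adjusted p = 0.00427, edgeR), and −0.27 without rank 7 (adjusted p = 0.463). Myom2, of the M band, fell from 2968 CPM at rank 1 to 1309 at rank 7 (slope −0.35), and Cmya5 (−0.31), Tnni3 (−0.30), Myl2 (−0.27) and Myl3 (−0.20) fell too. Ttn, Actc1, Tnnc1 and Mybpc3 had slopes between −0.11 and 0.05.
Calcium handling genes followed. The sarcoplasmic reticulum pump Atp2a2 was 11008 to 14471 CPM in ranks 1 to 5, 8879.5 at rank 6 and 5766 at rank 7 (slope −0.38), and the release channel Ryr2 was 2586, 2783, 2108, 1963.5, 1856, 1799 and 1145 CPM (slope −0.36). Pln (−0.24), Hrc (−0.45), the L-type channel Cacna1c (−0.31), Itpr2 (−0.23) and Jph2 (−0.16) fell, 7 of 17 in all (41.2%, against 9.18%), and Sri rose (0.14). The exchanger Slc8a1 (−0.05) and Casq2 (0.01) did not pass.
Of 18 potassium channel genes 7 fell (38.9%, against 9.18%). Kcnv2, a silent subunit, was 21.3 to 29.2 CPM over ranks 1 to 5, 16.3 at rank 6 and 5.76 at rank 7 (slope −0.75, SE 0.0743, adjusted p = 0.000219, edgeR). Kcnip2, the subunit that sets the transient outward current of the mouse ventricle, was 178 to 229 CPM in the lower hearts, 160 at rank 6 and 72.6 at rank 7 (slope −0.48), and the ATP-sensitive channel genes Abcc9 (−0.50), Abcc8 (−0.28) and Kcnj11 (−0.22) fell along with Kcnj3 (−0.27) and Kcnk3 (−0.19). The channel genes Kcnd2, Kcnh2, Kcnq1 and Kcnj2 had slopes between −0.30 and −0.06 and did not pass. Of 12 sodium, pacemaker and T-type channel genes 1 rose (8.33%, against 12.1% of all genes) and 2 fell (16.7%, against 9.18%), Scn4a (−0.75) and Hcn2 (−0.45). Kcnj3 alone of these genes passed without rank 7 (slope −0.46, adjusted p = 0.0461).

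**Figure D4:**
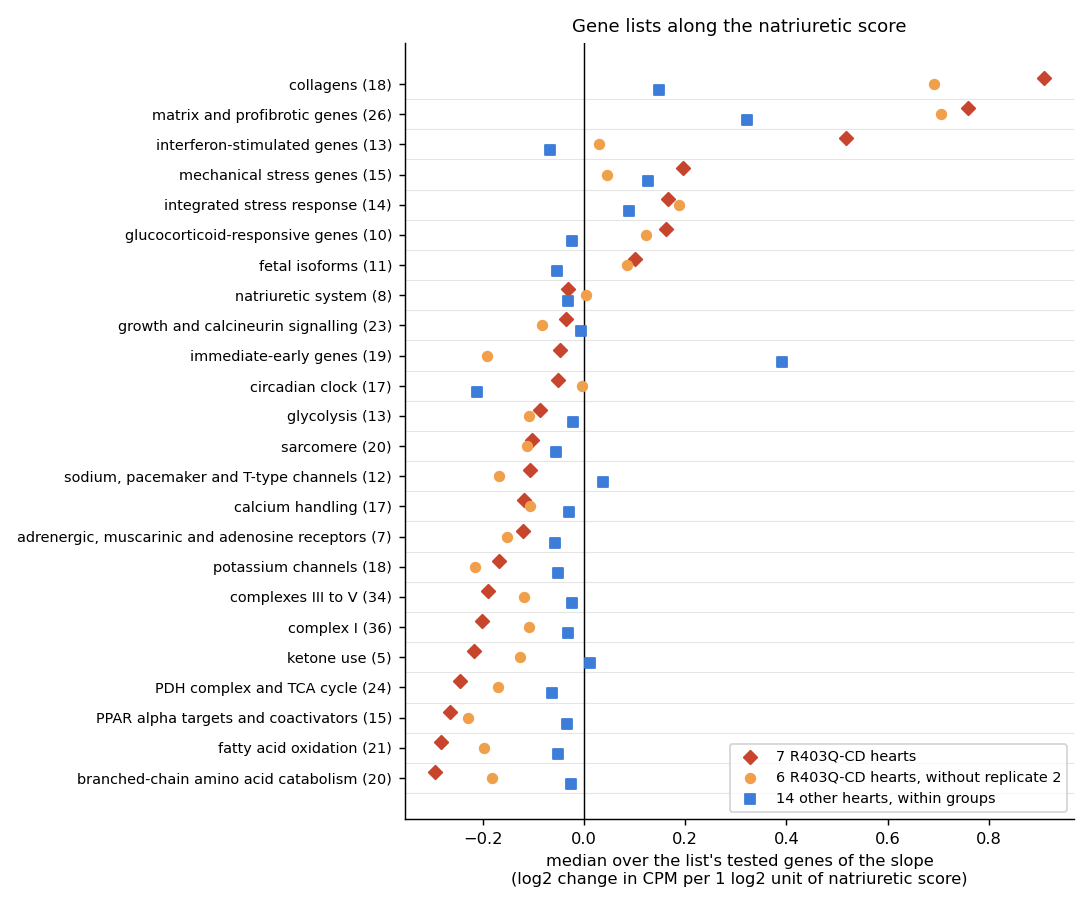
Median slope of each gene list (log2 change in CPM per unit of score, number of genes tested in brackets) in the 7 R403Q-CD hearts, without R403Q-CD replicate 2 (the rank 7 heart) and in the 14 other hearts. Collagens (0.91, 0.69 and 0.15) and matrix genes (0.76, 0.71 and 0.32) lie far to the right, and the interferon list falls from 0.52 to 0.03 when rank 7 is left out.

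Among stress programmes, 6 of 14 genes of the integrated stress response rose (42.9%, against 12.1% of all genes tested), Nupr1 (slope 0.84), Mthfd2 (0.64), Psat1 (0.36), Atf5 (0.23), Asns (0.19) and Atf4 (0.18), and Aldh1l2 fell (−0.36). Nupr1 was 5.04 to 7.25 CPM in the lower 5 hearts, 17.8 at rank 6 and 31.5 at rank 7 and passed without rank 7 (adjusted p = 0.0369), as did Aldh1l2 (adjusted p = 0.0432). Ddit3 and Trib3, which mark a terminal response, did not pass (slopes 0.15 and −0.02).
Of 13 interferon-stimulated genes 10 rose (76.9%, against 12.1%), and rank 7 was the highest heart for all 13, where 30.4% of all genes showed this. Their summed level was 193 CPM at rank 1, 108 to 137 at ranks 2 to 5, 159 at rank 6, 376 at rank 7 and 88.7 to 141 in WT-CD. Rank 6 lay above every WT-CD heart in 10 of the 13 (76.9%, against 25.8% of all genes). Irf7, a regulator of interferon production, was 5.9 to 12.0 CPM in ranks 1 to 6 and 54.4 at rank 7 (slope 0.84, adjusted p = 0.00481, edgeR), and Ifi44 was 2.69 to 7.97 and 27.8 CPM (slope 0.79). Without rank 7 their slopes were −0.10 and −0.39 and none of the 13 passed.
Immediate-early genes followed their own order. Fos was 2.21, 3.62, 29.4, 20.4, 3.32, 2.90 and 10.1 CPM from rank 1 to rank 7, and 2 of 19 genes rose, Egr2 (slope 1.54) and Egr3 (1.24), a share of 10.5% that lies under the 12.1% of all genes. Egr2 was under 1 CPM in ranks 1 to 5, 2.28 at rank 6 and 11.001 at rank 7, and was tested only because of rank 7. In the circadian clock list 4 of 17 fell (23.5%, against 9.18% of all genes), Npas2, Tef and Hlf among them. In the glucocorticoid-responsive list 2 of 10 rose (20%, against 12.1%), Tsc22d3 (0.16) and Mt2 (0.65), and with scaling to library size alone 6 did. Of 7 adrenergic, muscarinic and adenosine receptors Adra1a (−0.58) and Adora2a (−0.27) fell (28.6%, against 9.18%). In the growth list Igf1 rose (0.51) from 19.1 to 27.3 CPM in the lower hearts to 32.5 and 62.1, Nfatc4 rose (0.24), and Mef2a (−0.13) and Myocd (−0.23) fell, 2 of 23 each way (8.70%), which is below the share of all genes that rose and near that of all genes that fell. In these lists none passed without rank 7.

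Macrophage genes rose modestly. Of 14 markers 11 rose (78.6%, against 12.1% of all genes tested) and 0 fell, with a median slope of 0.26, and the summed level was 687 to 890 CPM in ranks 1 to 6, 1271 at rank 7 and 511 to 750 in WT-CD. Csf1r, the receptor that macrophages need to survive, was 51.4, 61.2, 67.4, 63.3, 66.8, 70.5 and 83.4 CPM (slope 0.16, adjusted p = 0.0272, edgeR), and the monocyte receptor gene Ccr2 was 1.78 to 3.67 CPM in ranks 1 to 6 and 11.8 at rank 7 (slope 0.73). Without rank 7 none passed. Lymphocyte markers were all under 1 CPM and not tested, and no endothelial, endocardial, blood cell or adipocyte marker passed, other than Pecam1 (adjusted p = 0.0293, edgeR) with scaling to library size alone.

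Atrial muscle, which makes most Nppa in the body, was looked for in all 21 libraries. Bmp10, an atrial growth factor, was at or near 0 in each. Sln was 89.5 CPM, Myl7 183 and Myl4 343 at rank 7, the highest of the 21 hearts, and 1.89, 11.05 and 15.5 CPM at rank 6. At ranks 1 to 5 Myl7 was 27.7, 0.262, 69.4, 1.64 and 1.27 CPM, in no order with Nppa. WT-CD replicate 5 had 31.1 CPM of Sln, 108 of Myl7 and 120 of Myl4 with 461 CPM of Nppa, and the rank 3 heart had 69.4 CPM of Myl7 with 878 of Nppa, whereas rank 6 had 11.05 of Myl7 with 3821 of Nppa. Of the 6 atrial genes tested Sln and Dkk3 rose (33.3%, against 12.1% of all genes) and Kcnj3 fell (16.7%, against 9.18%). The summed level was 101 to 287 CPM in ranks 1 to 6, 808 at rank 7 and 125 to 411 in WT-CD, and the median slope was 0.99 with rank 7 and −0.58 without it. The part of atrial tissue in the rank 7 library was not tested.
Ventricular markers were present in every library. Their sum was 14971 to 19661 CPM in ranks 1 to 6, 10571 at rank 7 and 16376 to 18677 in WT-CD, and Myl2, Myl3, Lrrc10 and Mylk3 fell, 4 of 6 (66.7%, against 9.18% of all genes), none of them without rank 7. Of 6 conduction markers Shox2 alone was called, which was 0.187 to 1.29 CPM in ranks 1 to 6 and 3.94 at rank 7. It was tested only because of that heart, and its call is no support.

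**Figure D5:**
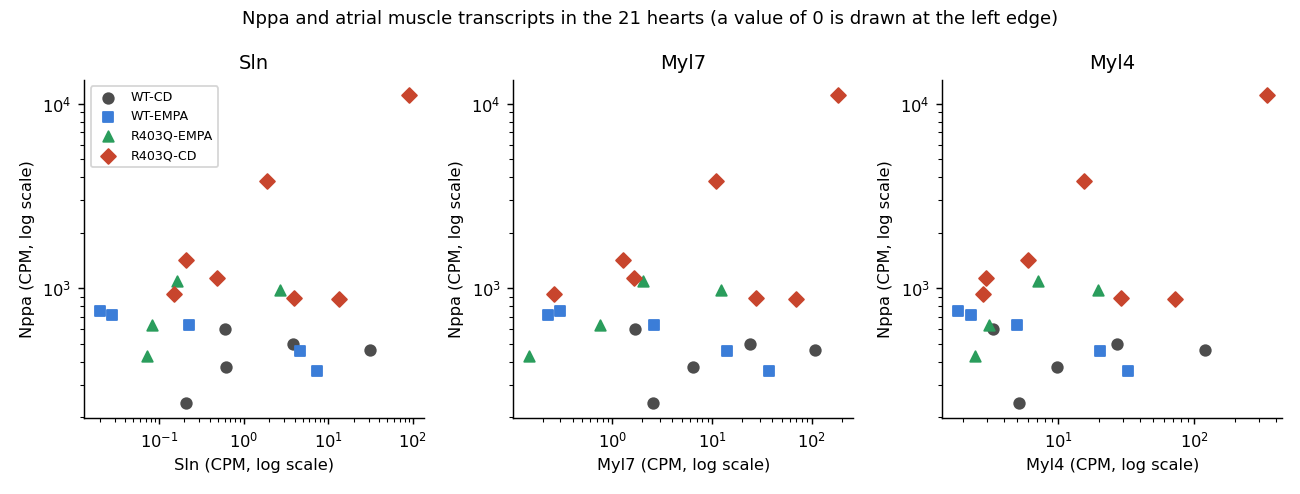
Nppa against the atrial transcripts Sln, Myl7 and Myl4 (CPM, log axes) in the 21 hearts by group; 1 heart with no Sln count is drawn at the left edge. The rank 7 heart is highest on both axes (183 CPM of Myl7), and the rank 6 heart has high Nppa (3821 CPM) at 11.05 CPM of Myl7.

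The 14 hearts that the order did not use spanned a narrower range. The SD of the score was 0.485 within their groups, against 1.09 over the 7 hearts and 0.621 without rank 7, and the median SE of a slope was 0.0904 there, 0.0566 and 0.111. In edgeR's test with group as a term 1 gene passed (0.00704%), Psca, a cell surface antigen of epithelia, with a slope of 1.78 (SE 0.229, adjusted p = 0.0156), and 692 genes (4.87%) had an unadjusted p under 0.05. In R403Q-CD Psca was 1.45 to 37.3 CPM and showed no direction (slope −0.59, adjusted p = 0.406, rho 0.18). With the cage as a further term no gene passed, 1056 had an unadjusted p under 0.05 and the slope of Psca was 1.51 (adjusted p = 0.269). The call was also lost when WT-CD replicate 1, 3 or 4, WT-EMPA replicate 3 or R403Q-EMPA replicate 1 or 3 was left out.
Of the 1996 genes chosen by rho, 1405 (70.4%) had a slope of the same sign in the 14 hearts, where 59.4% of all genes tested did. The share was 71.1% of the rising and 69.5% of the falling genes. An unadjusted p under 0.05 in the same direction was found for 59 of the 1102 rising genes (5.35%, against 2.75% of all genes upwards) and for 34 of the 894 falling genes (3.8%, against 2.12%).
In these hearts the median slope was 0.15 for collagens and 0.32 for the matrix list, against 0.0029 over all genes, and Col1a2 had 0.09 (SE 0.261, unadjusted p = 0.745 in edgeR's test). In the matrix list 3 genes had an unadjusted p under 0.05: Spp1 (2.01, unadjusted p = 0.00348, edgeR), Thbs4 (0.88, unadjusted p = 0.00314) and Mmp14 (0.43), none past the adjustment. For fatty acid oxidation, the TCA cycle and the respiratory lists the medians were −0.05, −0.06, −0.03 and −0.02.
The 4 genes next to Psca upwards were Phlda1 (slope 0.58), Snai1 (0.65), H19 (1.14) and Scgb1c1 (0.58), and the 5 downwards were Gm45909 (−1.13), the carboxylesterase gene Ces1d (−0.38), the clock genes Nr1d2 (−0.43) and Tef (−0.36) and the aminotransferase gene Gpt2 (−0.38), with adjusted p from 0.234 to 0.622. In R403Q-CD Ces1d, Tef, Gpt2, Gm45909 and Scgb1c1 fell, with slopes of −0.60, −0.20, −0.21, −0.88 and −0.69, and H19 rose (0.45). None of them passed without rank 7, where H19 had a slope of 0.01, Scgb1c1 of −0.08, Ces1d of −0.24, Tef of −0.10, Gpt2 of −0.16 and Gm45909 of −0.61. Gm45909 lies within the span of Ces1d on the same strand of chromosome 8, so that their reads may not be separable.

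The slopes of R403Q-CD and of the other hearts were compared directly. In the fit of all 21 hearts 4 genes had a slope that differed (0.0281%), all of them lower in R403Q-CD, among them Plxnb1 (difference −0.57, SE 0.0849, adjusted p = 0.02), Hook1 (−0.52, adjusted p = 0.0242) and the noncoding gene AC141882.2 (−0.59, adjusted p = 0.0476). At an unadjusted p under 0.05 there were 1846 genes. With the cage as a further term none passed, 922 had an unadjusted p under 0.05, and the differences of Plxnb1, Hook1 and AC141882.2 were −0.48, −0.44 and −0.56 (adjusted p = 0.356, 0.586 and 0.356). Plxnb1 was 39.9 to 48.6 CPM in ranks 1 to 5, 27.1 at rank 6 and 13.2 at rank 7, and 60.0 to 74.5 in WT-CD, with a slope of −0.03 over the other hearts. Without rank 7 none of the 4 passed and 798 genes had an unadjusted p under 0.05, and the count was also 0 without WT-CD replicate 1 or 4, WT-EMPA replicate 2 or 3 or R403Q-EMPA replicate 1. For Col1a2 the difference was 0.85 (SE 0.268, adjusted p = 0.162), so the collagen gradient was not shown to be particular to untreated mutants.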

How the data were processed

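RNA of left ventricles was sequenced from 21 mice. Per the labels and the study's methods, the authors selected polyadenylated RNA, aligned read pairs to mm10 with STAR 2.6.0c, checked them with FastQC 0.11.7 and assigned uniquely aligned proper pairs to Ensembl genes with featureCounts (Subread 1.6.2), leaving out mitochondrial genes. The deposited counts are unnormalized. The deposited log2 values are variance-stabilized counts from DESeq2 1.32.0 and served as an alternative.

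Groups came from the sample labels, and hearts were ordered by the mean log2 CPM (TMM over 21 libraries, prior count 2) of Nppa and Nppb. Genes with a mean CPM of 1 or more over the 7 R403Q-CD hearts were tested (14212 of 55450). The counts were fitted with edgeR 4.0.16 in R 4.3.3 (glmQLFit and glmQLFTest, Benjamini-Hochberg adjustment over all genes tested, threshold 0.05) in the 7 hearts, in the 14 others with group as a term, and in all 21 for the difference. Spearman's rho was used as a description. The scripts were tested on simulated counts. Totals ran from 23491535 to 43539684 counts.

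Named genes were the 10 rising and the 10 falling with the smallest p among those with an absolute rho of 0.75 or more and the same sign without each heart in turn, the 5 in each direction in the other hearts, those past the threshold for the difference, and members of written lists, as defining members or those with the largest slopes. The genes in exact order and those passing without 1 heart were named after their values were seen. Some genes that the rule names are not reported here. The members, lists and tests were chosen with earlier results of these data known. Alternatives were DESeq2 1.42.0, limma 3.58.1, robust fits, no filter, library size scaling, other scores, a stricter rho, cage and leaving out each heart. Leaving out 2 hearts together, list medians without 1 heart, and the cage as a term in the fits of 14 and 21 hearts, were added after seeing the data. GENCODE gave positions for 14207 of the genes tested, and promoter sequences are RefSeq's (GRCm38.p6).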

Additional observations from a re-analysis of the deposited data

Results flagged for a closer look

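In R403Q-CD, R403Q-CD replicate 2, the heart with the highest natriuretic score, stood apart from the other 6 for 9 of the measures examined: its gap to the nearest heart, as a share of the whole range, was 0.5846 for Myh6, 0.5792 for Col8a1, 0.6251 for Asb15, 0.6247 for Gm36827, 0.6114 for H19, 0.7437 for Scgb1c1, 0.6056 for Gm45909, 0.7446 for Ces1d and 0.6997 for Tef, each above Dixon's limit. It was the highest heart for Col8a1 and H19 and the lowest for the others. In the other groups, the same was seen for Myh6 in WT-EMPA replicate 1 (0.7161, the highest), the total count of WT-EMPA replicate 3 (0.7991, the lowest), H19 in WT-CD replicate 1 (0.7653, the lowest) and in R403Q-EMPA replicate 3 (0.8444, the highest), and Plxnb1 in R403Q-EMPA replicate 4 (0.8835, the highest). Col8a1, Asb15 and Gm36827 were chosen for their slopes in these 7 hearts, and rank 7 was the highest or lowest heart for 97.7% of the genes called there, so the choice of these genes favours a mark on that heart. The other genes were chosen for slopes in the other groups, for a difference in slope or as members of a list. Of 156 combinations of measure and group 14 were so marked. Chance marks about 1 in 20 groups of values that were chosen without regard to them, which does not hold for genes chosen by slope. The slope on the score differed between R403Q-CD and the other hearts, by edgeR's test of the difference, for Plxnb1 (−0.574), Hook1 (−0.521) and AC141882.2 (−0.586).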

How the results depend on the processing

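The 3026 genes along the score in R403Q-CD numbered 2917 to 3555 under DESeq2, no filter, library size scaling, either peptide alone, a variance-stabilized score, robust edgeR and limma, and 107 to 3177 without each replicate in turn, the lowest without R403Q-CD replicate 2. They numbered 30 with the cage as a factor, 0 with the rank of the heart in place of the score (3334 with an unadjusted p under 0.05) and 0 without R403Q-CD replicates 2 and 5. With library size scaling 74.5% of the called genes rose, against 56.9%, and the median slope of all genes was 0.0476. The 1996 genes by Spearman's rho numbered 1248 with Nppa alone, 1221 at an absolute rho of 0.85 and 1734 to 4157 without each replicate. The count of 1 in the other hearts was 0 with the cage as a factor, 8 with DESeq2, 4 without the filter, 0 with Nppa alone, 0 with Nppb alone and 0 to 2 without each replicate. The 4 slope differences were 0 with the cage as a factor, 276 with DESeq2, 36 without the filter, 2 with library size scaling, 0 with Nppa alone, 1272 with Nppb alone, 2 with the variance-stabilized score, 24 with limma and 0 to 33 without each replicate. For these moves the cause was not tested. The median slope of the natriuretic list went from −0.0309 to 0.00392 without R403Q-CD replicate 2. For the 20 genes chosen by the rule in R403Q-CD, 295 alternative fits kept the call and 65 lost it, in the same direction. The labels give no replicate numbers that pair mice. The cage, which mutant and wild-type mice shared, was not a term in the main fits. It served as the block only in the alternative fits with the cage. Depth limits calls on genes near the floor of 3 counts.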
